A study of Mus musculus with 17 samples.

Results

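Expression of 10 genes of the fibroblast surface and its matrix was followed across 17 RNA sequencing libraries of mouse pancreatic stellate cells: Ly6a, Ly6c1, Ly6d, Ly6e, Thy1, Cd34, Dpp4, Pi16, Dpt and Clec3b. They are 10 of the 35896 gene IDs in the files. They were chosen by name, as LY6 family genes and markers of fibroblast state, and the choice started from Ly6d being higher with TGF-beta in these libraries. The TGF-beta against control values are therefore given as a description with no test, for all 10 genes. Of the 10, 9 passed the filter on low counts that left 13923 genes for testing, and Dpp4 did not. Ly6d passed only through its TGF-beta libraries (42 to 697 counts), the values that led to its choice. Clec3b passed only through its control libraries (14 to 136 counts).

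Stellate cells are the resident fibroblast-like cells of the pancreas and a source of the fibroblasts around pancreatic tumours. All libraries came from wild-type C57BL/6J cells of the lines PSC4 (passages 23 to 25) and PSC5 (passages 27 and 28), grown in Matrigel, a basement membrane gel, for 4 days. The control group had 5 libraries in control medium. The other groups had 4 libraries each: control medium with 20 ng/mL TGF-beta, medium conditioned by pancreatic tumour organoids (CM), and CM with 300 nM neratinib, an inhibitor of ERBB receptor kinases. The CM carried the codes T6 or T8. All T6 libraries were replicate number 2 (passages 24 and 28) and all T8 libraries replicate number 1 (passages 23 and 27). Code, number and passage therefore cannot be told apart within the CM groups. How the lines were derived and whether they are clonal is not given in the sources used here. The series' own text calls the TGF-beta cells a model of myofibroblastic tumour fibroblasts and the control cells quiescent. The labels separate replicates by passage but do not say that they were otherwise independent, so p-values measure only the spread between these libraries, which may be technical.

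LY6 proteins are small cell surface proteins built around a fold held by cysteine pairs, and most, with Thy1, hang on the outer membrane by a GPI lipid anchor. Ly6a is the Sca-1 antigen of stem cells and of fibroblasts in inflamed or adventitial tissue, and Ly6c1 is a close relative also used to sort inflammatory fibroblasts. Cd34, Dpp4, Pi16, Dpt and Clec3b mark adventitial or progenitor-like fibroblasts in many mouse tissues, and TGF-beta is the signal best known for driving fibroblasts towards contractile, matrix-making cells.

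The 4 LY6 members lie on mouse chromosome 15 (GRCm38, GENCODE M21), within 286.8 kb that hold 12 protein-coding genes, 8 of them among the LY6 genes listed here. Ly6d spans chr15:74762056-74763620 on the minus strand, Ly6e chr15:74955051-74959905 on the plus strand, Ly6a chr15:74994877-74998031 and Ly6c1 chr15:75044018-75048830, both on the minus strand. Bases 61 to 300 of the coding sequence, counted from the A of the start codon, are printed for them and for Ly6c2, the gene nearest in sequence to Ly6c1, because their likeness decides how reads can be divided among them. They are from GENCODE M21 transcripts, 5′ to 3′, and capitals mark the in-frame cysteine codons.
Ly6a: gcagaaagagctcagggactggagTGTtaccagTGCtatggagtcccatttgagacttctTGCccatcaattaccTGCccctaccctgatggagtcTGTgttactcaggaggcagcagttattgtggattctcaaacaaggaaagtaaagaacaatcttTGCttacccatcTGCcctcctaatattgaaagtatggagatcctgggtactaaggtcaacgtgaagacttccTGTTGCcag
Ly6c1: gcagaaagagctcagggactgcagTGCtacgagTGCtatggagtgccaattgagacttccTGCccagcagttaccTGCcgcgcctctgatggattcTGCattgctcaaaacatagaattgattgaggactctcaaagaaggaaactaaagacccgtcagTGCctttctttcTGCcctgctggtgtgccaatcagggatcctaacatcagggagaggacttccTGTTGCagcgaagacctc
Ly6c2: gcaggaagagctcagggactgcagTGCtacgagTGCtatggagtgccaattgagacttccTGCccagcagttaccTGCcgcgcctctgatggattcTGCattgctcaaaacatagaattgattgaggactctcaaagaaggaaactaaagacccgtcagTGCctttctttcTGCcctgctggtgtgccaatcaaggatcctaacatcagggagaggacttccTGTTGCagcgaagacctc
Ly6d: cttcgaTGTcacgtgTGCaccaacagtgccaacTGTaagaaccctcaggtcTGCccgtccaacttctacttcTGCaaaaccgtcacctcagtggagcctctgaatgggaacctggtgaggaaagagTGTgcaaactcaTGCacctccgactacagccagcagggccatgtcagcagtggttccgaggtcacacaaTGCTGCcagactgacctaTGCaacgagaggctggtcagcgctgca
Ly6e: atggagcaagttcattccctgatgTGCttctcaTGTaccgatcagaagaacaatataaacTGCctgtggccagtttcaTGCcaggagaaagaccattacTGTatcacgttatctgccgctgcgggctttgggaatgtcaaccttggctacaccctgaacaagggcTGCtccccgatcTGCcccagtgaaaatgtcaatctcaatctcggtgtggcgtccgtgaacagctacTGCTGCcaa

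The stretch held 9 cysteine codons in Ly6a, Ly6c1, Ly6c2 and Ly6e and 10 in Ly6d. Over their aligned coding sequences Ly6c1 and Ly6c2 were 97.7% identical and Ly6a and Ly6c1 83.8%. Ly6d was 65.4% identical to Ly6a, and Ly6e 59.5%. Of the distinct 31-base words in the transcripts of Ly6c1, 46.8% also occurred in another gene, most often Ly6c2 (33.0%). In Ly6a the share was 31.9%, most often with Ly6c1 (21.9%). It was 0.422% in Ly6e, and no word of Ly6d was shared. The authors' counts divide such reads between genes by an estimate, so the levels of Ly6a and Ly6c1 are uncertain to the extent that reads were misassigned. Ly6c2 had 1 to 11 counts in every library, against 150 to 1632 for Ly6c1.

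Library totals lay between 22168953 and 29421447 counts. Values are CPM, counts scaled to a common library size with edgeR's TMM factors, and 3 counts, taken as the floor of detection, were 0.101 to 0.137 CPM. The floor covers counting error only. The 3 libraries labelled PSC4 replicate 1 stood apart. After removal of group means, their median correlation across genes was -0.437 to -0.242 with the other PSC4 libraries of other groups and 0.159 to 0.240 with the PSC5 libraries, so results are also given without them where that matters. Epithelial transcripts were concentrated in T6 libraries. The summed level of 15 epithelial markers (a list of 16 without Sox9) was 146.7 to 326.6 CPM in the 4 T6 libraries, 9.83 to 52.4 in the 4 T8 libraries, 15.9 to 23.6 in control and 14.9 to 20.8 with TGF-beta. Of 13 in the full list that passed the filter, 5 were higher with TGF-beta than in control without overlap: Krt8, Krt18, Epcam, Cdh1 and Cldn4. Krt7 was lower. Krt18 had means of 4.79 CPM with TGF-beta and 0.377 in control, and Krt7 0.0299 and 1.36. The part of epithelial transcripts in the Ly6d values with TGF-beta was not tested. Of the blood cell markers, Ptprc, Adgre1, Itgam and Cd3e had at most 3 counts in every library. The blood list of 10 genes summed to 52.5 to 97.3 CPM, with Ebf1, which fibroblasts also express, the highest gene in every library. The 10 endothelial markers summed to 8.76 to 15.98 CPM in control, 15.95 to 33.6 with TGF-beta, 7.53 to 12.45 in CM and 8.39 to 37.5 with neratinib. Of these, Vwf (means of 11.3 and 1.77 CPM), Ptprb (3.18 and 0.277) and Pecam1 (0.662 and 0.303), named after their values were seen, were higher with TGF-beta than in control without overlap. Tek (0.614 and 1.27 CPM, lower in the mean), Kdr, Cdh5, Emcn, Egfl7, Esam and Tie1 overlapped. The highest Vwf of any library, 29.8 CPM, was with neratinib, in PSC4 number 1. Tie1 had at most 3 counts in every library. The part of endothelial transcripts in the members' values was not tested. The 10 mesenchymal identity markers summed to 5748 to 34152 CPM over all libraries.

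Per kilobase of annotated exon, Ly6a and Ly6e were the most abundant of the 10 in control medium, at 153.3 and 120.0 CPM per kb. Dpt followed at 95.3, Ly6c1 at 27.7, Thy1 at 25.1, Cd34 at 4.90, Clec3b at 2.29, Pi16 at 0.414, Dpp4 at 0.0284 and Ly6d at 0.00966. With TGF-beta Ly6d took the fifth place, at 14.9 CPM per kb, above Ly6c1 at 10.6. In CM and in CM with neratinib Ly6d was ninth of 10, at 0.159 and 0.175 CPM per kb.

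**Figure D1:**
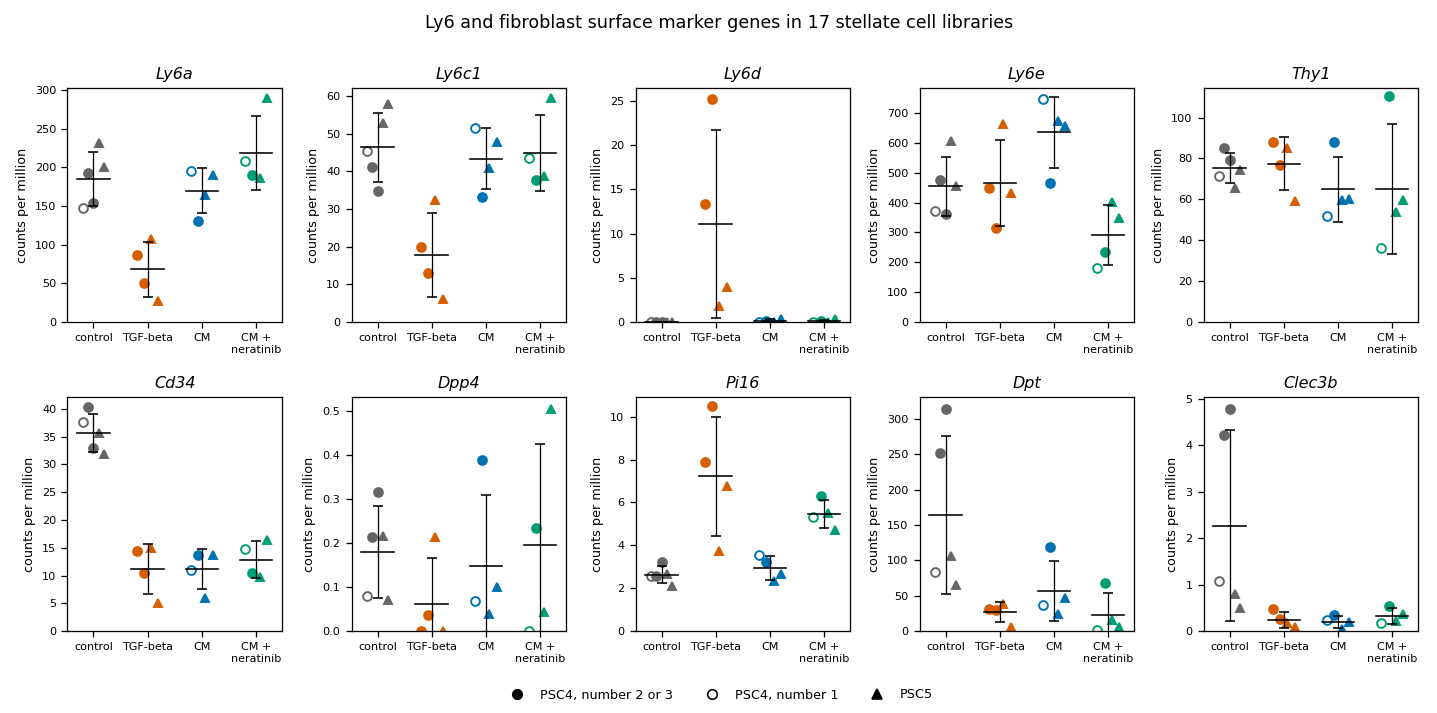
Level of each of the 10 genes in each library (vertical axes, CPM, linear from 0) for the 4 media groups; circles are PSC4, open circles PSC4 number 1 and triangles PSC5, with the group mean as a line and its SD as bars (n = 5 for control, n = 4 for the others). Ly6d lay above 1.80 CPM only with TGF-beta, the 5 control values of Cd34 (31.8 to 40.3 CPM) lay above all 12 others, and Dpp4 stayed at or under 0.504 CPM.

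With TGF-beta, 7 of the 10 genes had values that did not overlap with control, 2 higher and 5 lower. Over all 13923 tested genes the groups did not overlap for 32.7%, 16.3% higher and 16.3% lower, and nothing is read from the members' count because this contrast chose them. The Ly6 members differed in direction. Ly6d was at 0, 0, 0, 1 and 0 counts in the 5 control libraries. With TGF-beta it was at 13.3 and 25.2 CPM in PSC4 (354 and 697 counts) and at 1.81 and 3.99 CPM in PSC5 (42 and 98 counts). Every TGF-beta library was above every control library, and both PSC4 values were above both PSC5 values. As a lower bound, the mean of the 4 TGF-beta libraries (11.1 CPM) was 92.8-fold the highest control floor of 3 counts (0.119 CPM). The 2 PSC4 libraries carried most of that mean, and either PSC5 value alone would give a smaller bound. In bulk RNA, more cells with a transcript and more transcript per cell cannot be told apart.

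Ly6a and Ly6c1 went the other way. Ly6a was at 146.8, 192.3 and 153.6 CPM in the PSC4 controls and 231.0 and 200.2 in the PSC5 controls, and at 86.3, 50.5, 107.8 and 27.2 CPM with TGF-beta. Ly6c1 was at 34.8 to 57.9 CPM in control and at 19.9, 13.0, 32.4 and 6.10 CPM in the same 4 TGF-beta libraries. The means were 2.72-fold lower for Ly6a and 2.60-fold lower for Ly6c1. In both genes PSC5 number 2 was the lowest TGF-beta library and PSC5 number 1 the highest.

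Among the adventitial markers, the stem cell antigen Cd34 was at 35.7 ± 3.46 CPM in control (SD, n = 5) and 11.2 ± 4.53 with TGF-beta (SD, n = 4), 3.17-fold lower. Dpt, which encodes the matrix protein dermatopontin, was at 83.8, 251.3 and 314.3 CPM in the PSC4 controls and 106.7 and 65.5 in the PSC5 controls. With TGF-beta it was at 30.8, 30.6, 39.2 and 6.35 CPM, 6.15-fold lower in the mean. The PSC4 number 1 control of Dpt lay among the PSC5 controls, below both other PSC4 controls. Clec3b, which encodes tetranectin, a plasminogen-binding protein, was at 0.496 to 4.79 CPM in control and 0.0814 to 0.488 with TGF-beta, on 14 to 136 and 2 to 13 counts. Pi16, a secreted peptidase inhibitor family gene that marks adventitial fibroblasts, was the one adventitial member that was higher: 2.13 to 3.24 CPM in control and 7.89, 10.5, 3.74 and 6.75 with TGF-beta. Ly6e and Thy1 overlapped between the groups, with means of 454.2 and 465.5 CPM for Ly6e and 75.1 and 77.4 for Thy1. Dpp4, the serine protease CD26, had 0 to 11 counts in every library of the study.

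Lists of genes known for fibroblast states were counted the same way. The lists were chosen with earlier results of these data known, so their counts here and below are descriptions. Of 12 myofibroblast genes, 5 were higher and 1 lower with TGF-beta without overlap, and of 12 inflammatory fibroblast genes 1 was higher and 8 lower. Of 15 other adventitial genes, 14 passed the filter, 2 were higher and 2 lower. Of 34 other LY6 domain genes in the files, 7 passed the filter and 2 of these were higher, while 19 had at most 3 counts in every library. Gml2 (means of 0.554 CPM with TGF-beta and 0.00718 in control) and Gml (0.201 and 0.00795) did not pass the filter. Both were at the floor in control and also higher with TGF-beta without overlap.

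**Figure D2:**
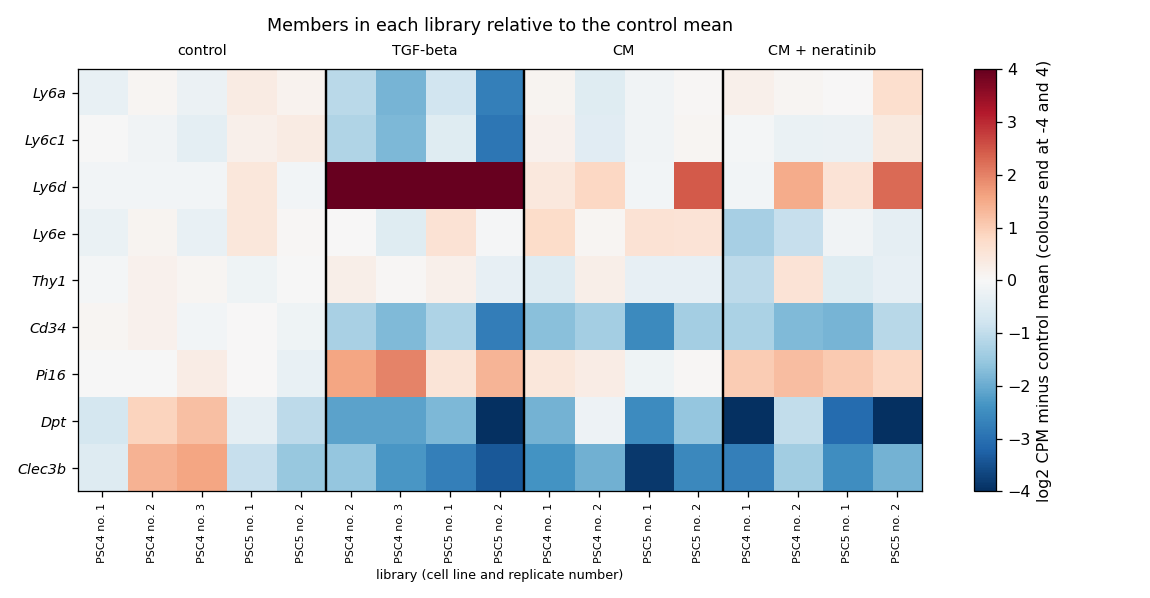
Log2 CPM of the 9 members that passed the filter (prior count 2) minus the mean of the 5 control libraries, for each library (columns, by group, cell line and replicate number); red is higher, blue lower, and colours end at -4 and 4. Ly6d is red in all 4 TGF-beta columns and Cd34 and Clec3b are blue in all 12 columns outside control.

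Promoters of 5 of the 10 genes were matched in the RefSeq table (GRCm38.p6). The 250 bases before a start of Ly6c1 (chr15:75048664-75048913, minus strand) and of Dpt (chr1:164796413-164796662, plus strand) are printed because both genes were lower with TGF-beta and each holds a motif match, in capitals.
Ly6c1: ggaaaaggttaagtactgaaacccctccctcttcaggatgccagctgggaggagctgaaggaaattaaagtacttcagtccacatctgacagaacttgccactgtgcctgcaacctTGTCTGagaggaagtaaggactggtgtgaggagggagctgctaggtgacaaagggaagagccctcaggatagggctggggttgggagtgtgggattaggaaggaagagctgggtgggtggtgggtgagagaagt
Dpt: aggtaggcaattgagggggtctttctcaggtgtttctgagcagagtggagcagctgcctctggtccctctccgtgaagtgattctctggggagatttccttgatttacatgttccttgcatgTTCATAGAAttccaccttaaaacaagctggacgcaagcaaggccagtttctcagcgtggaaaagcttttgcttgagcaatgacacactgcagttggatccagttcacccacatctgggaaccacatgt

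The motifs searched numbered 5 and were read on both strands: AP-1 (TGANTCA), the CAGA box bound by SMAD proteins (CAGACA), a STAT motif (TTCNNNGAA), a TEAD motif (GGAATG) and the core of the interferon-stimulated element (GAAANNGAA). The Ly6c1 window held a CAGA box in reverse at bases -134 to -129, a motif found in 17.1% of 32851 promoter windows of the same length. The start of this window and the match lie inside the annotated span of Ly6c1, not upstream of the gene. The Dpt window held a STAT motif at -128 to -120, found in 7.02%. The windows of Cd34 and Pi16 held none of the 5 motifs. Nor did the other Ly6c1 window (chr15:75048838-75049087), which lies upstream of the annotated gene. The Pi16 window (chr17:29318632-29318881) lies inside the annotated span of Pi16, not upstream of the gene. The window of Dpp4 held a TEAD motif (12.6% of windows) and an interferon core (7.13%). Matches describe letters in these windows and no more.

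In CM, 2 of the 9 tested genes fell against control and none rose. Cd34 averaged 11.1 ± 3.63 CPM in CM (SD, n = 4) against 35.7 ± 3.46 in control (SD, n = 5). Its 4 CM values, 13.8 and 11.1 in PSC4 and 13.7 and 6.04 in PSC5, lay under all control values (log2 fold change -1.67, SE 0.286, adjusted p = 0.00203 by edgeR's quasi-likelihood test with Benjamini-Hochberg adjustment over all genes, as for all adjusted p-values given here). Clec3b fell to 0.0382 to 0.353 CPM, on 1 to 10 counts, and no CM library reached the lowest control (log2 fold change -3.11, SE 0.600, adjusted p = 0.00438). Because Clec3b passed the filter through control alone, the filter favoured a fall, and a rise could hardly have been called. Over all 13923 genes 14.2% passed the same threshold, 7.05% higher and 7.14% lower. Without the T6 libraries both still passed, Cd34 at -2.06 (adjusted p = 0.00781) and Clec3b at -3.78 (adjusted p = 0.0239). Of all called genes 49.7% were higher, and 37.5% when libraries were scaled by the upper quartile instead.

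Ly6a and Ly6c1 did not pass in CM. Ly6a was at 130.5 and 194.6 CPM in PSC4 and 189.4 and 164.4 in PSC5, 1 value under the lowest control and 3 inside the control range (log2 fold change -0.13, SE 0.288, adjusted p = 0.8). For Ly6c1 the difference was -0.11 (SE 0.313, adjusted p = 0.857). Ly6e was higher than the control mean in all 4 CM libraries (466.6 to 745.7 CPM) but overlapped with control (log2 fold change 0.46, SE 0.185, adjusted p = 0.115). Dpt was at 118.7 and 36.6 CPM in PSC4 and 46.5 and 23.9 in PSC5, overlapping with the widely spread controls (log2 fold change -1.40, SE 0.730, adjusted p = 0.222). Thy1, the CD90 antigen that marks most fibroblasts, and Pi16 differed by -0.19 (SE 0.234) and 0.19 (SE 0.191) on the log2 scale, with adjusted p = 0.634 and 0.547.

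Ly6d was near the floor in CM, at 2 and 1 counts in PSC4 and 11 and 0 in PSC5. Its fitted difference from control rests on these counts and depends on the prior count (adjusted p = 0.179). Ly6d was tested only because its TGF-beta libraries passed the filter, so nothing is read from its p-values against control. With a block for line and passage (the replicate block) the adjusted p was 0.0409, with the 4 T6 libraries left out it was 0.771, and over the alternatives it ranged from 0.0409 to 0.771. The higher count in each line (2 and 11) was in the T6 library, where the epithelial gene Krt8 had 1233 and 1173 counts. The T8 libraries had 12 and 147 counts of Krt8. The part of epithelial transcripts in the Ly6d counts was not tested.

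The same gene lists of other fibroblast states were counted in the same fit, with the same limit on their choice. Of 12 inflammatory fibroblast genes, 9 rose and none fell (median log2 fold change 1.87, against 0.00 over all tested genes). The acute phase gene Saa3 rose from 52.3 to 2947 CPM and Lcn2, an iron-carrier binding protein, from 2.92 to 57.4. Of 14 other adventitial genes, 1 rose and 4 fell, among them the actin-severing gelsolin gene Gsn (722.6 to 297.3 CPM). Of 12 myofibroblast genes, 1 rose and 4 fell. Among 27 tested genes of GPI anchor assembly, the pathway that builds the anchor of Thy1 and most LY6 proteins, 2 rose and 1 fell. Of 7 tested other LY6 genes, none rose and 1 fell.

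With neratinib in CM, against control, 5 of the 9 tested genes changed, 1 higher and 4 lower. Over all genes 43.1% passed, 22.2% higher and 20.9% lower, so the members' count of 5 in 9 stands beside a high background. The share of called genes that were higher was 51.4%, and 41.1% with upper-quartile scaling. Pi16 rose to 6.30 and 5.32 CPM in PSC4 and 4.72 and 5.49 in PSC5, above every control value (log2 fold change 1.09, SE 0.189, adjusted p = 0.000464). Cd34 fell to 9.73 to 16.4 CPM (log2 fold change -1.45, SE 0.285, adjusted p = 0.0011), without overlap with control. Dpt was at 68.5 and 2.00 CPM in PSC4 and 5.54 and 16.1 in PSC5 (log2 fold change -2.79, SE 0.779, adjusted p = 0.0103). All 4 Dpt values were below the control mean, and 1 of them, in PSC4 number 2, overlapped with the lowest control. Clec3b fell by 2.35 (SE 0.589, adjusted p = 0.00546), on 4 to 14 counts, and also overlapped. The limit that the filter sets on Clec3b applies here too.

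Ly6e fell below control with neratinib, to 235.3 and 179.5 CPM in PSC4 and 349.2 and 401.6 in PSC5 (log2 fold change -0.72, SE 0.190, adjusted p = 0.00712). The groups overlapped, and the adjusted p was 0.0506 without the cell line term and 0.0534 without the T6 libraries. Ly6a and Ly6c1 did not pass, with log2 fold changes of 0.23 (SE 0.287) and -0.07 (SE 0.313). Ly6d had 4 and 0 counts in PSC4 and 7 and 1 in PSC5 (adjusted p = 0.106, and 0.0207 with the replicate block). As in CM, nothing is read from the p-values of Ly6d. Thy1 was at 110.5 and 36.4 CPM in PSC4 and 59.8 and 54.0 in PSC5, so that 1 library, PSC4 number 2, lay above all controls and the other 3 below all controls (log2 fold change -0.19, adjusted p = 0.533). Without that library the log2 fold change was -0.56 (adjusted p = 0.0346), and without all T6 libraries -0.73 (adjusted p = 0.0152).

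**Figure D3:**
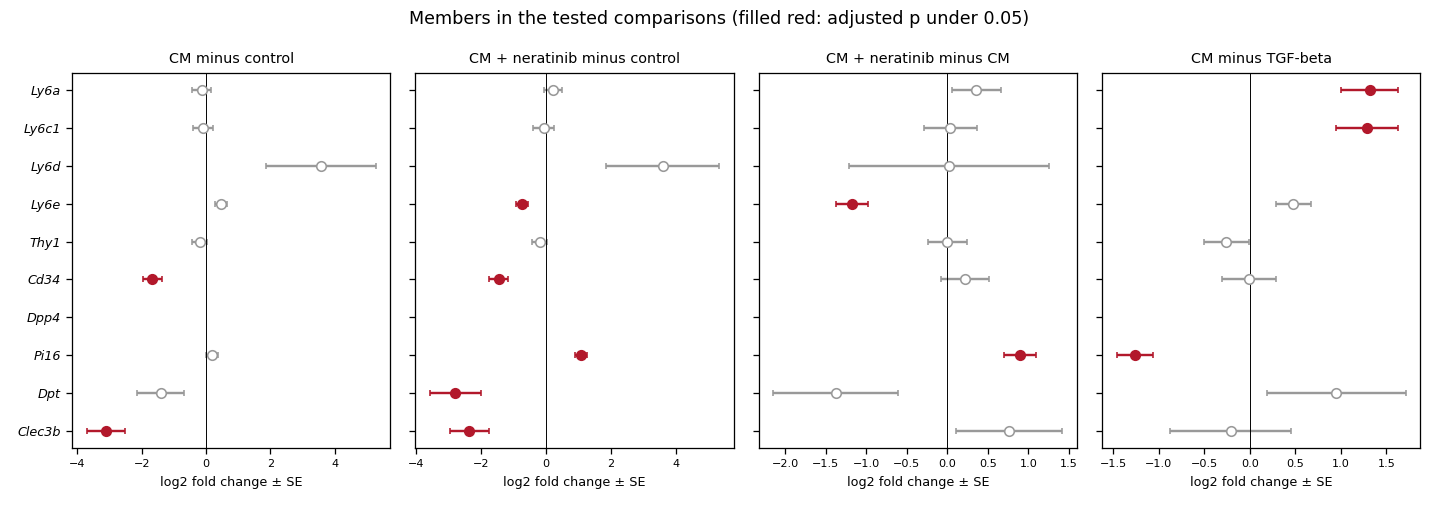
Log2 fold change with its SE (horizontal axes) of each member in the 4 tested group comparisons, from the fit over all 17 libraries; filled red points have adjusted p under 0.05. Cd34 and Clec3b are filled and negative in both comparisons with control, and Pi16 is positive with neratinib and negative in CM against TGF-beta; Dpp4 was not tested, and Ly6d is left out of the last panel because it was chosen on its TGF-beta values.

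The direct comparison of CM with and without neratinib asked what the inhibitor added. Ly6e fell and Pi16 rose, 2 of 9 tested genes, against 20.5% over all genes (10.8% higher and 9.63% lower). Ly6e went from 635.2 ± 118.9 CPM (SD, n = 4) to 291.4 ± 101.9 (SD, n = 4), and the highest neratinib library, at 401.6, was below the lowest CM library, at 466.6 (log2 fold change -1.18, SE 0.199, adjusted p = 0.00144). Pi16 went from 2.33 to 3.57 CPM to 4.72 to 6.30 CPM (log2 fold change 0.90, SE 0.200, adjusted p = 0.0066). Neither gene overlapped. Without the 4 T6 libraries, which leaves 2 libraries a group, 0 of the 9 passed, with Ly6e at -1.39 (adjusted p = 0.0596) and Pi16 at 0.92 (adjusted p = 0.155), and 187 genes passed in all. The PSC4 library left in each group was then PSC4 number 1, and the passage changed along with the medium code. Dpt was lower in 3 of 4 libraries than the CM mean (log2 fold change -1.38, SE 0.769, adjusted p = 0.22), in a fit that ignores pairing. Against the CM library of the same line and number, Dpt was lower with neratinib in each pair. The values were 68.5 against 118.7 and 2.00 against 36.6 CPM in PSC4, and 5.54 against 46.5 and 16.1 against 23.9 in PSC5. Dpt passed with the replicate block, which keeps this pairing (-1.91, adjusted p = 0.0264). It also passed, at -1.63 (adjusted p = 0.0499), with the PSC4 number 1 libraries counted with PSC5. Cd34, lower in both groups than in control, did not pass between them (0.21, SE 0.294, adjusted p = 0.651).

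Ly6e is induced by interferon in many cell types, and a list of 20 interferon response genes was read beside it. This list too was chosen with earlier results of these data known. All 20 fell with neratinib against CM (median log2 fold change -2.46). Against control 17 fell and none rose with neratinib, and 3 rose and none fell in CM. Their summed level was 2070 to 3868 CPM in CM, 411.0 to 1597 with neratinib, 1478 to 2493 in control and 1896 to 2730 with TGF-beta. Across the 17 libraries Ly6e correlated with this sum at r = 0.923, and at 0.830 after group means were removed from both, on log2 values. The 3 tested genes most like Ly6e were Igtp (r = 0.968), Rnf213 (0.955) and Helz2 (0.953). The libraries share lines, passages and media, so these correlations are descriptions.

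**Figure D4:**
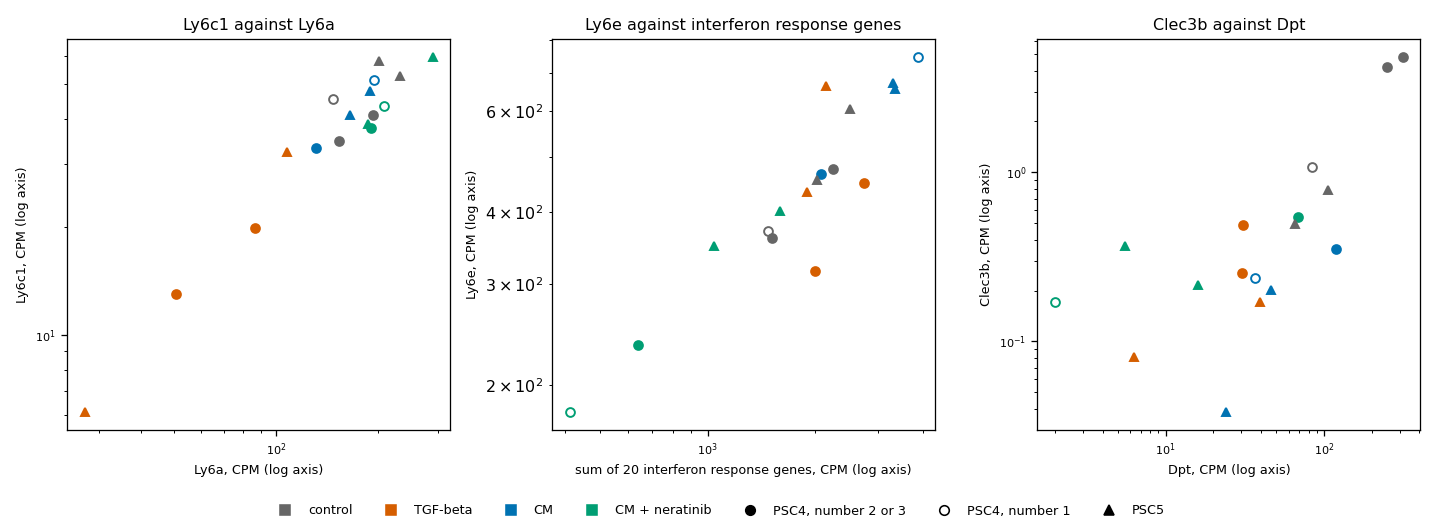
Each point is 1 of 17 libraries, coloured by group, with circles for PSC4 (open for number 1) and triangles for PSC5; all axes are CPM on log scales. Left, Ly6c1 against Ly6a (r = 0.973 on log2 CPM, with the 4 TGF-beta libraries lowest in both); middle, Ly6e against the sum of 20 interferon response genes (r = 0.923); right, Clec3b against Dpt (r = 0.724).

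CM was also set against TGF-beta, on the 8 tested members other than Ly6d. These values share the TGF-beta libraries with the contrast that led to the choice of genes. Ly6a and Ly6c1 were higher in CM and Pi16 was lower, against 35.3% of all genes (17.8% higher and 17.5% lower). The log2 fold change was 1.32 for Ly6a (SE 0.309, adjusted p = 0.00391), 1.29 for Ly6c1 (SE 0.339, adjusted p = 0.00797) and -1.26 for Pi16 (SE 0.200, adjusted p = 0.000197). None of the 3 overlapped: Ly6a was at 130.5 to 194.6 CPM in CM and 27.2 to 107.8 with TGF-beta. Cd34 was as low in CM as with TGF-beta within the error, with means of 11.1 and 11.2 CPM (log2 fold change -0.01, SE 0.294, adjusted p = 0.982). Ly6e did not pass (0.48, SE 0.196, adjusted p = 0.0706), but did in DESeq2 (adjusted p = 0.0471) and without TGF-beta PSC5 number 1 (0.60, adjusted p = 0.039). Ly6d, described without a test, was at 0 to 0.369 CPM in CM and 1.81 to 25.2 with TGF-beta. Of the 12 myofibroblast genes 9 were lower and none higher in CM, and of the 12 inflammatory genes 9 were higher and none lower. The 14 other adventitial genes split, 5 higher and 6 lower, with the matrix gene Tnxb at 18.9 against 1.60 CPM and the microfibril gene Mfap5 at 0.968 against 19.1.

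In each of the 4 tested comparisons the share of members called was near that of all genes, so the counts say nothing of the members as a set. The order of the 4 groups differed between members. Ly6a and Ly6c1 overlapped among control, CM and CM with neratinib, and only the TGF-beta group stood apart. For Cd34 the control group stood apart and the other 3 overlapped. For Pi16 control and CM overlapped at the low end and CM with neratinib and TGF-beta at the high end. Ly6d separated TGF-beta from the other 3. For Ly6e CM and CM with neratinib were at the ends, control and TGF-beta differed by less than their SD, and each pair of neighbours in the order overlapped. Thy1 neighbours overlapped throughout and differed by less than the larger SD.

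The lines differed in the members' levels, depending on the 3 libraries labelled PSC4 replicate 1. With all libraries, 1 of 9 tested genes passed between PSC5 and PSC4, against 6.97% over all genes. That gene was Ly6e, higher in PSC5 (log2 fold change 0.47, SE 0.136, adjusted p = 0.0498). The number was 0 to 4 when single libraries were left out, and 0 without the T6 libraries. Without the 3 libraries 5 of 9 passed, against 42.6% over 14049 genes: Ly6e higher in PSC5, and Thy1 (-0.43, adjusted p = 0.00737), Pi16 (-0.47, adjusted p = 0.0282), Dpt (-1.56, adjusted p = 0.00711) and Clec3b (-1.95, adjusted p = 0.00126) lower. The 3 libraries were set apart by their likeness to PSC5. Leaving them out, or counting them with PSC5, therefore favours a difference between the lines, and these p-values are no independent test of it. The 2 other PSC4 controls held 251.3 and 314.3 CPM of Dpt and 4.22 and 4.79 CPM of Clec3b, while PSC4 number 1 held 83.8 and 1.07, near the PSC5 values. Whether the response to CM or to neratinib differed between lines was asked by interaction terms. In edgeR, 0 of 9 members and 0% of all genes passed for CM, and 0 of 9 and 0% for neratinib. No member had an unadjusted p under 0.05, as 43 and 237 of all genes had, and in DESeq2 no member passed, with 0 and 1 of all genes. For neratinib, 14 of the 20 interferon response genes had an unadjusted p under 0.05 in edgeR, and none passed (median interaction 1.72). The interaction of Ly6e was 0.72 (SE 0.385, unadjusted p = 0.0851 in edgeR). Ly6e averaged 606.2 CPM in CM and 207.4 with neratinib in PSC4, and 664.3 and 375.4 in PSC5. Whether Ly6e fell alike in both lines is not settled.

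Among the members, Ly6a and Ly6c1 were each other's most alike gene over the 17 libraries (r = 0.973 on log2 CPM), and they share sequence as described. The next for Ly6a were Ggta1 (0.924) and Ugt1a6a (0.920), and for Ly6c1 Efemp1 (0.918) and Ugt1a6a (0.911). Ly6d was most like Ttc9 (0.976), Cdh6 (0.972) and Ccdc6 (0.959). Dpt was most like Osr2 (0.979), Naprt (0.959) and Arsb (0.954). Cd34 was most like Pyroxd2 (0.919), Dcaf4 (0.914) and Oxtr (0.912), and among members correlated best with Clec3b (0.822). Pi16 was most like Spryd3 (0.945), Atp6v1g1 (0.937) and Plp2 (0.932), Clec3b like Ppp1r14c (0.950), Slc9a9 (0.923) and Ccdc167 (0.920), and Thy1 like Zfp128 (0.889), Ccdc18 (0.886) and Pcdhgb5 (0.880). Between the lower and higher members with TGF-beta, Ly6a and Ly6d correlated at -0.759. Ly6d had 42 to 697 counts with TGF-beta and 0 to 11 in the other libraries. Its correlations, with Ly6a as with Ttc9, Cdh6 and Ccdc6, therefore largely restate the contrast that led to its choice. All correlations in this paragraph are over libraries that share lines, passages and media.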

How the data were processed

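RNA from 17 cultures was made into mRNA libraries. Per the submitters' processing notes, Salmon 1.4.0 was used, with the builds GRCm38 and mm10, and DESeq 2 is named. The annotation release, strand setting and read filters are not given in the sources used here. The deposited values are expected counts per gene made by the authors, 74.8% of those above 0 not whole, and were rounded. Reads of Cd34, Dpp4, Pi16 and Dpt may include those of antisense genes that overlap them, since no strand setting is given.

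Counts were fitted with edgeR 4.0.16 (R 4.3.3): TMM factors, filterByExpr by group (minimum count 10, minimum total 15), group and cell line as terms over 17 libraries, the quasi-likelihood test and Benjamini-Hochberg adjustment over 13923 genes, with a threshold of 0.05. Interaction terms of group and line were fitted apart. Scripts were tested on simulated counts. Same-numbered libraries of a line share a passage in the labels, and after removal of group means all 22 such pairs correlated above 0.1 across genes (median 0.299), so the numbers were taken to pair them. The replicate block uses this pairing and the main fit does not. DESeq2 1.42.0, other scalings, no filter, no line term, the replicate block and leaving libraries out were tried. Leaving out the T6 libraries was chosen after the data were seen. Members and lists were chosen with earlier results of these data known. Named list genes were the 2 called genes with the largest change and at least 10 CPM in the higher group, or fewer, and the 3 genes most correlated with each member. Coding sequences were aligned with Biopython 1.88.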

Additional observations from a re-analysis of the deposited data

Results flagged for a closer look

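In 40 combinations of member and group, 2 libraries stood far from the others of their group by Dixon's criterion, which chance meets in about 1 of 20 groups. Ly6d in control PSC5 number 1 was at 0.0359 CPM, a single count, where the other 4 control libraries had 0. Dpp4 in TGF-beta PSC5 number 1 was at 0.215 CPM, where the nearest of the other 3 libraries was at 0.0361. Both values rest on 5 counts or fewer.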

How the results depend on the processing

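The calls of Cd34 and Clec3b in CM against control, of Cd34, Pi16, Dpt and Clec3b in CM with neratinib against control, and of Ly6a, Ly6c1 and Pi16 in CM against TGF-beta kept their direction and stayed past the threshold in every alternative fit that gave a value. With the replicate block, 3 calls of members were gained, as given beside the results (Ly6d in CM and in neratinib against control, Dpt in neratinib against CM), and no other call of a member changed. Between neratinib and CM the number of members called was 2, and 0 without the T6 libraries. Between the lines it was 1, and 3 with DESeq2, 4 with the PSC4 number 1 libraries counted with PSC5, 5 without them, 0 without the T6 libraries, and 0 to 4 on leaving out single libraries. Signs turned only for differences that did not pass. Neratinib against CM: Thy1 (0.00117) was -0.00873 with upper-quartile scaling, -0.00241 without the filter, -0.00321 on those groups alone, -0.0513 with the block, -0.0317 with PSC4 number 1 counted with PSC5, -0.301 without T6 libraries and -0.357 to 0.222 without single libraries. Ly6c1 was -0.173 without T6 libraries and -0.0801 to 0.199 without single libraries, and Ly6d -0.0632 with PSC4 number 1 counted with PSC5 and -1.22 to 2.19 without single libraries. CM against TGF-beta: Cd34 was 0.0196 and 0.0195 with PSC4 number 1 counted with PSC5 and removed, and Clec3b 0.326 and 0.0408, or 0.291 with the block. Without single libraries Cd34 lay between -0.246 and 0.236 and Clec3b between -0.551 and 0.0418. Against control, Ly6c1 was 0.00266 in CM without T6 libraries, and without single libraries -0.183 to 0.0321 with neratinib, where Thy1 lay between -0.563 and 0.0403. Ly6d between the lines was 0.398 with DESeq2. The causes were not tested. Depth limits Ly6d outside TGF-beta (0 to 11 counts), Dpp4 (0 to 11) and Clec3b outside control (1 to 14). The filter admitted Ly6d through TGF-beta alone and Clec3b through control alone, which limits their calls against control.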
